A study of Mus musculus with 12 samples.

Results

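The genes described are 35 mouse genes of the amino acid response that the transcription factor ATF4 directs. They were taken by gene name from a table of 56748 genes, and 36 rows carried these names, because Ddit3 has a second row that was at 0 counts in all 12 libraries and was set aside. They form 5 classes: 9 transcription factors and other regulators, 6 enzymes of serine and one-carbon metabolism, 6 enzymes of asparagine, proline, alanine and cysteine metabolism, 7 amino acid transporters and 7 stress effectors. Poly-A RNA was sequenced in 4 groups of 3 libraries. Primary hepatocytes, which are liver parenchymal cells kept in culture, carried either a scrambled siRNA (siScramble, genotype WT) or an siRNA that knocks down ABHD6 (siABHD6, genotype ABHD6 knockdown), and no other treatment is named. Livers came from C57BL/6 mice on a high fat diet, in which fat supplied 60% of calories over 8 weeks. They were GFP controls (genotype WT) or overexpressed ABHD6 (genotype LABHD6 OE) from an AAV8 vector given into the tail vein, with the hepatocyte-directed TBG promoter. All 6 livers share the diet, so no liver on another diet serves as a reference, and the labels give neither age nor sex. ABHD6 is a serine hydrolase that splits monoacylglycerols.

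ATF4 is a leucine zipper protein whose mRNA is translated when the initiation factor eIF2 is phosphorylated, as happens when GCN2, the product of Eif2ak4, senses uncharged tRNA or when PERK senses stress in the endoplasmic reticulum. Together with C/EBP partners it binds composite C/EBP-ATF elements and switches on genes for the synthesis, uptake and tRNA charging of amino acids. It also switches on Ddit3, Trib3, Chac1 and Ppp1r15a, which act in cell death, signalling, glutathione breakdown and the return of translation. Because ATF4 is set mainly by translation, the level of its mRNA is not a measure of its protein, which was not measured here.

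The libraries held 12295733 to 16234658 counts. Values of single genes are counts scaled by the normalised library size (CPM), and levels are compared between genes per kilobase of the gene length in the table (RPKM). Abhd6 (ENSMUSG00000025277; minus strand of mm39 chromosome 14, from 14413010 to 14466871) stood at 27.9, 25.7 and 25.6 CPM in siScramble and at 3.78, 4.06 and 3.87 CPM in siABHD6 hepatocytes, and at 57.1, 51.0 and 32.2 CPM in GFP and at 240.3, 136 and 201 CPM in ABHD6 OE livers. Every siABHD6 culture was below every siScramble culture, and every ABHD6 OE liver above every GFP liver. The liver difference of 2.04 (SE 0.28) on the log2 scale did not pass the test over all genes (edgeR unadjusted p = 0.000150, adjusted p = 1.00). The labels call the libraries biological replicates but do not say whether the hepatocyte replicates were separate cultures or animals. If they were not, the p-values describe no more than the scatter of these 6 cultures, and that scatter may be technical. Livers GFP 3 and ABHD6 OE 1 stood apart from the other 4 in acute phase genes. The acute phase gene Saa1 was at 8029 and 2409.6 CPM in these livers and at 41.2 to 114 CPM in the others. Scd1 and Alb differed too. Scd1 was at 3558 and 1318 CPM in these livers and at 15426 to 29131 CPM in the others. Alb was at 70781 and 50466 CPM in these livers and at 96565 to 111807 CPM in the others. Across genes, log2(CPM + 1) of these livers correlated at 0.982 with each other. GFP 3 correlated at 0.944 to 0.962 with the other 4, and ABHD6 OE 1 at 0.964 to 0.979. The other 4 correlated at 0.977 to 0.986 among themselves, a range that ABHD6 OE 1 reached into. The 8 hepatocyte markers summed to 9605 to 10088 CPM in the cultures and to 83681 to 148350 CPM in the livers, with none at 0 in any group. Alb, at 8538 to 9147 CPM in cultures, made up most of these sums. Each of the 8 was lower in every culture than in every liver, by unlike amounts. Cyp2e1 was at 25.4 to 36.8 CPM in cultures and 7754 to 13142 CPM in livers, and Hnf4a at 215 to 265 and 645 to 1024.5 CPM. At 0 in all 6 cultures were Timd4 of Kupffer cells and Colec11 and Hhip of stellate cells. The 8 Kupffer cell markers summed to 1.17 to 2.05 CPM in cultures and 229 to 480 CPM in livers, the 8 markers of sinusoidal endothelium to 17.4 to 19.5 and 217 to 307 CPM, and the 8 stellate cell markers to 2.06 to 5.32 and 157 to 468 CPM. Of 6 bile duct markers, summing to 860.0 to 1010.4 CPM in cultures and 54.4 to 104 CPM in livers, the keratin gene Krt7 was at 0 in all 3 siABHD6 cultures. Most of the culture sums came from Spp1 (480 to 652 CPM) and Cldn4 (312 to 350 CPM). Sox9 and Krt19 were also higher in cultures, but Krt7 and Epcam were not. Krt7 reached 0.451 CPM in cultures and lay at 0.459 to 1.18 CPM in livers. Epcam reached 0.434 CPM in cultures and lay at 0.360 to 3.52 CPM in livers. The 6 markers of B and plasma cells and the 4 of neutrophils stayed at or below 0.744 and 0.184 CPM in cultures, and the 4 markers of T and NK cells were at 0 there.

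The promoters of 9 genes carried the composite element TGATGNAA, where N is any base, and their windows are shown because this is the sequence that C/EBP-ATF pairs bind. Windows of 250 bases before to 50 bases after the transcription start were taken from RefSeq (GRCm38.p6, an earlier build than the mm39 of the counts). Of the 35 genes 30 had windows, 35 windows in all, and Cth, Eif4ebp1, Aldh1l2, Slc7a3 and Slc7a5 are named only. The element, searched on both strands, was present in 25.7% of these windows and in 3.97% of all 32851 windows. The form TGATGCAA was in windows of 7 of the 30 genes that had one. Counted over windows and not genes, it was in 0.895% of all windows. Each line gives 30 bases on the strand on which the element reads, with the element in capitals. It names that strand relative to the gene. The position is that of the element's first base in the direction of the gene, counted from the start. On lines of the opposite strand this base is the last of the capitals.
Atf3, chr1:191183425-191183454, opposite strand, from -110: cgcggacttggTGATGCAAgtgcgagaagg
Chac1, chr2:119351038-119351067, opposite strand, from -193: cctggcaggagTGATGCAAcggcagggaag
Trib3, chr2:152344028-152344057, opposite strand, from 15: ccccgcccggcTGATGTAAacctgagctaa
Slc7a11, chr3:50443661-50443690, gene strand, from -66: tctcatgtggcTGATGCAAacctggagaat
Slc7a11, chr3:50443642-50443671, opposite strand, from -47: gggctgcatgaTGATGCAAattctccaggt
Asns, chr6:7693214-7693243, gene strand, from -23: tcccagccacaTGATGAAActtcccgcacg
Nupr1, chr7:126625562-126625591, opposite strand, from -110: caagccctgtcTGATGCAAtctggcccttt
Slc1a4, chr11:20332699-20332728, opposite strand, from -4: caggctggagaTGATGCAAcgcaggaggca
Pycr1, chr11:120643833-120643862, gene strand, from -103: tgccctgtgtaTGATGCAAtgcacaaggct
Vldlr, chr19:27216809-27216838, opposite strand, from -200: gctaggagcgcTGATGCAActattgctgct

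Slc7a11, the gene of the cystine transporter xCT, was the gene with a pair of elements, which face each other. Its 250 bases before the start are shown with those of Asns, the asparagine synthetase gene, both in the direction of the gene and with elements in capitals as they read on that strand. Of the 35 genes Slc7a11 varied most between cultures and livers, and Asns was the lower gene with the smallest p of its enzyme class after ABHD6 knockdown. A match of letters is a description of the window and not a measurement of binding.
Slc7a11, chr3:50443614-50443863, minus strand: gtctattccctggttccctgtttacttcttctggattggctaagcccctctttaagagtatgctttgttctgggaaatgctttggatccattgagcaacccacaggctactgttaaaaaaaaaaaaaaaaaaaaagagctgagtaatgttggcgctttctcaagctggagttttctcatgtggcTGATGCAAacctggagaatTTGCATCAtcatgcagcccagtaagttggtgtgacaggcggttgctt
Asns, chr6:7693210-7693459, minus strand: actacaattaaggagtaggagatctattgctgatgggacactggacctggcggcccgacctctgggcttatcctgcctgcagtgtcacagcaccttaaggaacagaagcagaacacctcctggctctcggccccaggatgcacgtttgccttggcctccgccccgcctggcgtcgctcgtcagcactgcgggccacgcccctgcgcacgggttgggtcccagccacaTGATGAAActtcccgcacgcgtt

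**Figure D1:**
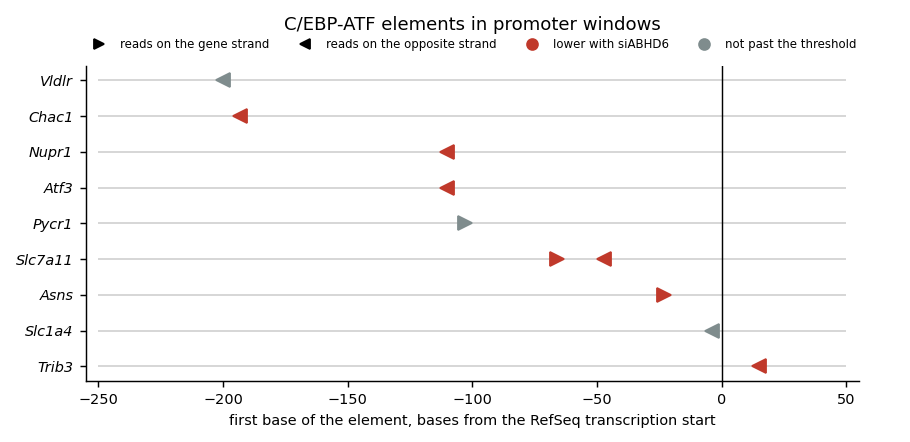
Position of the first base, in the direction of the gene, of each C/EBP-ATF element, in bases from the RefSeq transcription start. Windows run from 250 bases before to 50 bases after the start, for 9 genes. Arrowheads give the strand and red marks genes lower with siABHD6. These first bases lie between -200 (Vldlr) and 15 (Trib3), and Slc7a11 holds a pair, at -66 and -47.

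In hepatocytes with ABHD6 knocked down, most genes of the ATF4 response were lower. Of the 35 genes, 33 passed the filter on low counts, and Slc7a3 and Stc2 did not. In edgeR's quasi-likelihood test 21 fell (adjusted p under 0.05), where 7.61% of all 13449 genes tested did, and 3 rose (Cebpb, Gpt2 and Ddit4), where 7.81% of all genes tested did. The median log2 fold change was -0.33 against -0.00 over all genes tested, and 28 of 33 values were negative. The changes were modest, from -0.71 for Pycr1, which did not pass, to 0.28 for Ddit4. The 6 genes with an element that fell were Atf3, Chac1, Trib3, Slc7a11, Asns and Nupr1, and the 9 genes with an element had a median of -0.49. Of the 20 tested genes whose windows held no element, 13 fell and 3 rose, with a median of -0.22. The difference between these medians was not tested. Of the 8 hepatocyte markers, Apoa1 (log2 fold change 0.20), Ttr (0.25) and Hnf4a (0.23) rose and Alb (-0.06) fell with siABHD6. Of markers of other cells, 1 of 7 tested for sinusoidal endothelium, Lyve1 (-1.20), fell. It went from 23, 19 and 16 counts to 5, 10 and 10. Of 2 tested for stellate cells 1 rose, Col1a1 (1.11), from 26, 23 and 30 counts to 62, 37 and 70. Of 4 tested for bile duct 1 fell, Cldn4 (-0.12). The part of these markers in the result was not tested. These are bulk samples, so fewer cells of a type and less RNA per cell cannot be told apart.

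**Figure D2:**
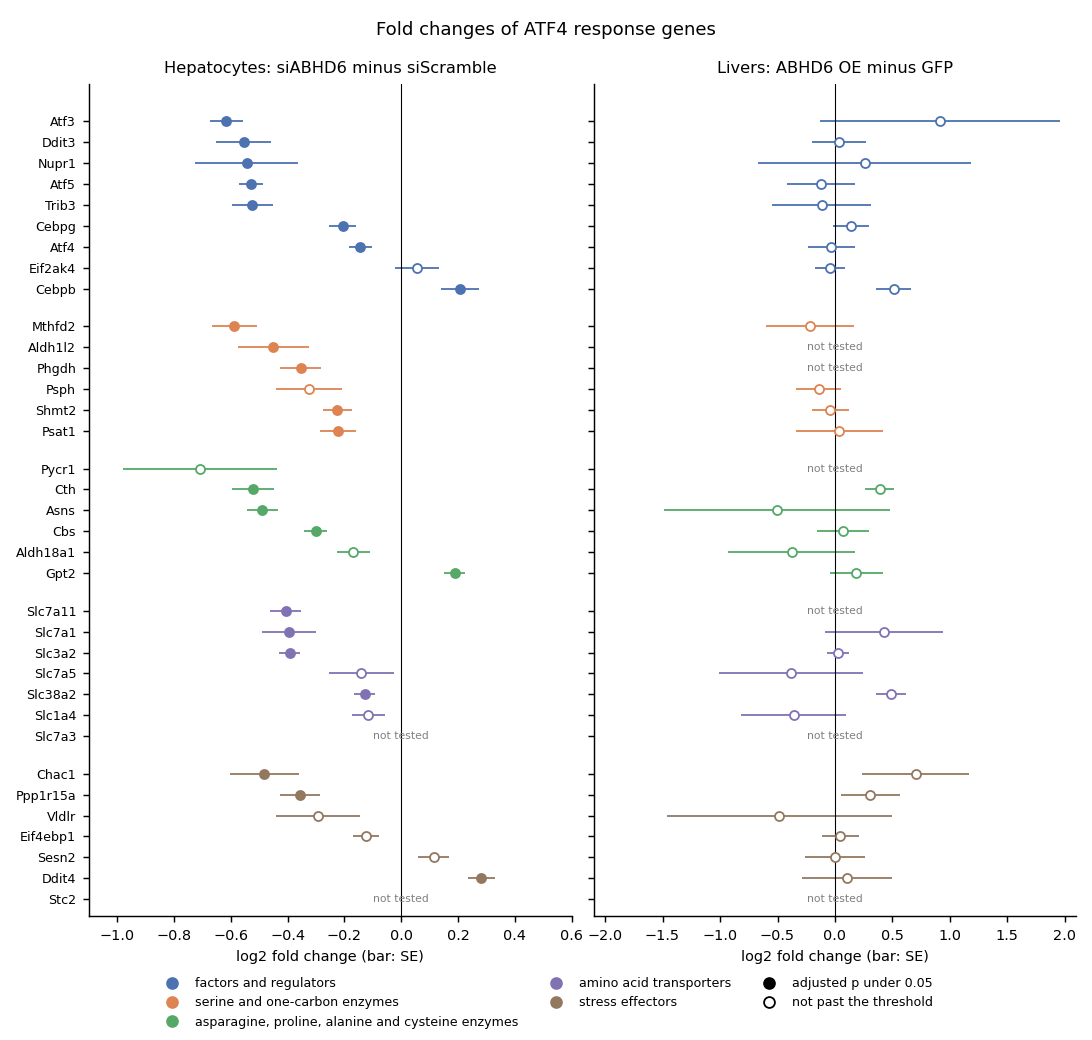
Log2 fold changes (points, with SE as bars) of the ATF4 response genes in hepatocytes (left) and livers (right, wider axis), coloured by class, with filled points for an adjusted p under 0.05. In hepatocytes 21 filled points lie left of 0 and 3 right of it, and in livers no point is filled.

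Among the regulators 7 of 9 fell and 1 rose, with a class median of -0.52. Atf4 (ENSMUSG00000042406; mm39 chromosome 15, 80139385 to 80141742, plus strand) was at 139, 148 and 147 CPM with siScramble and at 134, 128 and 135 CPM with siABHD6. Each siABHD6 culture lay below each siScramble culture, by a narrow margin. The log2 fold change was -0.14 (SE 0.04, adjusted p = 0.0217), so that it fell by 9.51%, and removing siScramble 2, siScramble 3 or siABHD6 2 ended the call (highest adjusted p 0.113 in edgeR over the single cultures removed). Atf5 (ENSMUSG00000038539; mm39 chromosome 7, 44461680 to 44466082, minus strand), which encodes a relative of ATF4 that is also controlled in translation, was at 225, 240.4 and 243 CPM with siScramble and at 168, 172 and 155 CPM with siABHD6. The groups were far apart, and the log2 fold change was -0.53 (SE 0.04, adjusted p = 3.69e-08). Atf3, a stress-induced leucine zipper factor, was at 71.7, 76.2 and 75.8 CPM and at 51.2, 52.9 and 43.2 CPM. The lowest siScramble culture lay well above the highest siABHD6 culture, with a log2 fold change of -0.62 (SE 0.06, adjusted p = 3.89e-07). Ddit3, which encodes the death-promoting factor CHOP, went from 19.8 ± 1.14 CPM to 13.6 ± 1.67 CPM (SD, n = 3), with a log2 fold change of -0.56 (SE 0.10, adjusted p = 0.000358). Trib3, the gene of a pseudokinase that restrains AKT, went from 48.8 ± 5.99 CPM to 34.3 ± 1.40 CPM (SD, n = 3), with a log2 fold change of -0.52 (SE 0.07, adjusted p = 3.14e-05).

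Among the C/EBP partners the directions were opposite. Cebpg, whose product pairs with ATF4, fell by a smaller amount, with a log2 fold change of -0.21 (SE 0.05). Cebpb (ENSMUSG00000056501; mm39 chromosome 2, 167530835 to 167532338, plus strand), a factor of the acute phase and of gluconeogenesis, was at 37.7, 43.8 and 45.8 CPM with siScramble and at 50.9, 52.6 and 44.8 CPM with siABHD6. These groups overlapped, since siABHD6 3 lay below siScramble 3. The log2 fold change was 0.21 (SE 0.07, adjusted p = 0.0447), and the call was lost in DESeq2 and without siScramble 1 or 2 or siABHD6 1 or 2. Nupr1, a small stress-induced nuclear protein gene, was low at 4.47 ± 0.324 CPM with siScramble and 3.09 ± 0.473 CPM with siABHD6 (SD, n = 3). Its fall of -0.54 (SE 0.18) was the least firm, with an adjusted p of 0.0477 that rose to 0.144 when cultures were left out. The call was lost with no filter, in DESeq2 and limma-voom, and without any single culture other than siABHD6 2. Eif2ak4, the gene of the sensor kinase GCN2, was at 25.0 ± 2.74 CPM with siScramble and 26.3 ± 0.777 CPM with siABHD6 (SD, n = 3), with a log2 fold change of 0.05 (SE 0.08, adjusted p = 0.709). On the table's coordinates Ddit3 shares 68 bases with Mars1, Atf5 571 with Nup62 and Cebpb 908 with Peds1, all on the other strand. The strand setting of the counting is not given in the sources used here, so reads of such pairs cannot be told apart.

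**Figure D3:**
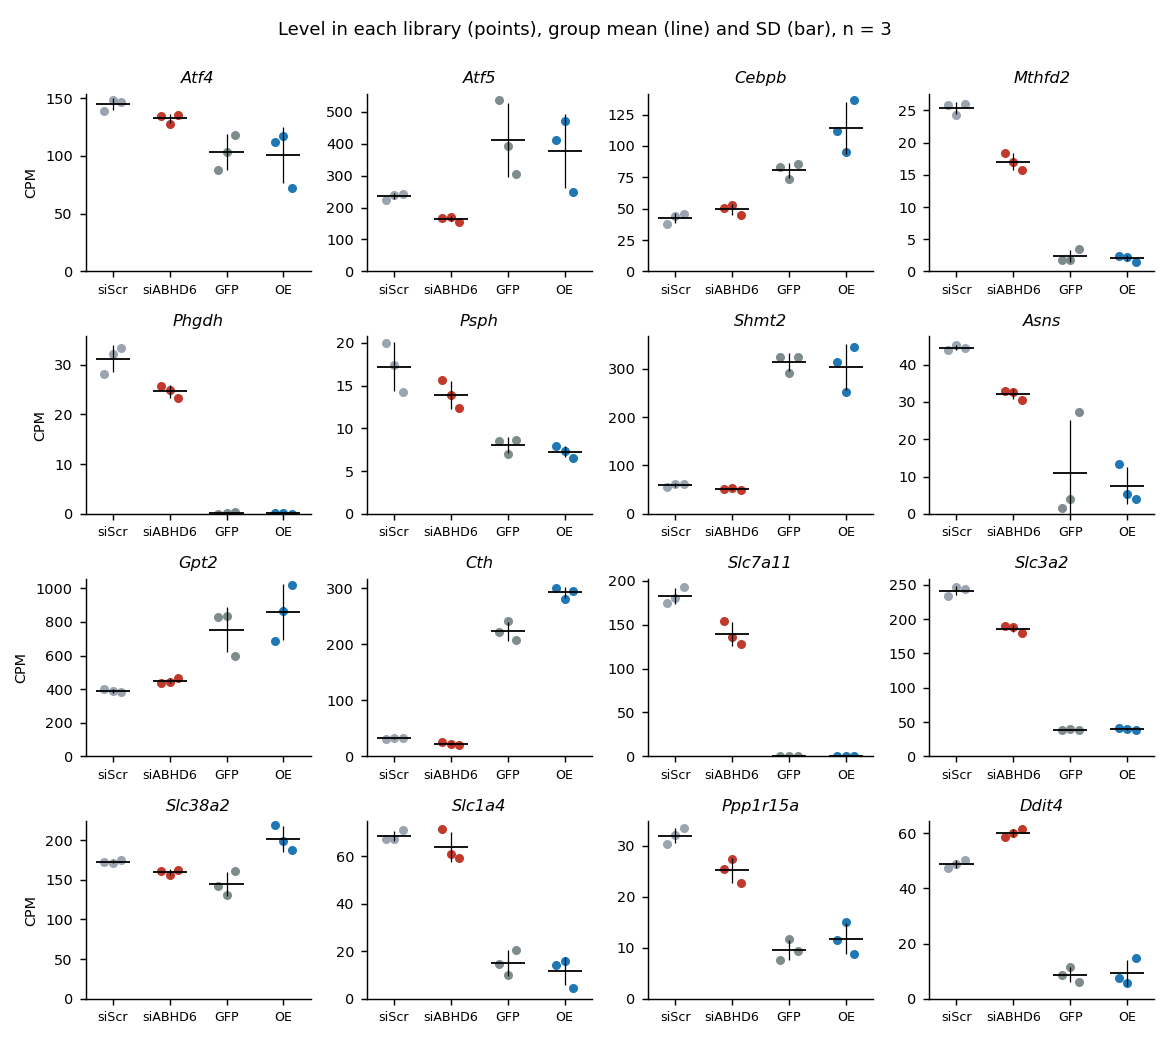
Level in CPM (linear axes from 0) of 16 genes in each library, with the group mean (line) and SD (bar, n = 3), for siScramble (siScr) and siABHD6 hepatocytes and GFP and ABHD6 OE (OE) livers. Slc3a2 separates the 2 hepatocyte groups and holds between 37.8 and 41.0 CPM in all livers, while Asns spreads from 1.498 to 27.2 CPM in GFP livers.

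All 6 genes of serine and one-carbon metabolism had negative fold changes in hepatocytes, and 5 of 6 fell, with a class median of -0.34. Mthfd2 (ENSMUSG00000005667; mm39 chromosome 6, 83282673 to 83302890, minus strand), which encodes the mitochondrial folate dehydrogenase, was at 25.8, 24.3 and 26.0 CPM with siScramble and at 18.4, 17.0 and 15.8 CPM with siABHD6. All siABHD6 cultures lay below all siScramble cultures, and the log2 fold change was -0.59 (SE 0.08, adjusted p = 2.55e-05). Phgdh (ENSMUSG00000053398; mm39 chromosome 3, 98220486 to 98247306, minus strand), whose product takes the committed step from glycolysis to serine, was at 28.0, 32.2 and 33.3 CPM and at 25.7, 24.9 and 23.3 CPM. The groups did not overlap, with a log2 fold change of -0.35 (SE 0.07, adjusted p = 0.00180). Psat1, for the aminotransferase that follows, was at 38.4 ± 0.452 CPM with siScramble and 33.3 ± 2.61 CPM with siABHD6 (SD, n = 3). Its log2 fold change was -0.22 (SE 0.06, adjusted p = 0.0196), and the call was lost in DESeq2 and without siScramble 2, siScramble 3 or siABHD6 2.

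Psph (ENSMUSG00000029446; mm39 chromosome 5, 129842622 to 129864513, minus strand), for the last step to serine, was at 19.97, 17.4 and 14.3 CPM with siScramble and at 15.6, 13.8 and 12.3 CPM with siABHD6. The groups overlapped and the log2 fold change of -0.33 (SE 0.11, adjusted p = 0.0630) did not pass. It passed with the replicate block, with no filter, without siScramble 3 and without siABHD6 1 (edgeR adjusted p = 0.0232, 0.0140, 0.0140 and 0.0283), and its value ran from -0.44 to -0.20 as single cultures were left out. Psph shares 452 bases with Cct6a on the other strand, which had a mean of 3551 counts in siScramble cultures. Shmt2 (ENSMUSG00000025403; mm39 chromosome 10, 127352992 to 127358313, minus strand), the mitochondrial serine hydroxymethyltransferase gene, was at 55.2, 61.7 and 62.1 CPM and at 51.9, 53.3 and 49.5 CPM. All siABHD6 cultures were lower, with a log2 fold change of -0.22 (SE 0.05, adjusted p = 0.005001). Aldh1l2, for the mitochondrial enzyme that oxidises formyl-tetrahydrofolate, was at 9.20 ± 0.348 CPM with siScramble and 6.78 ± 0.841 CPM with siABHD6 (SD, n = 3), with a log2 fold change of -0.45 (SE 0.13, adjusted p = 0.0179). Its call was lost without siScramble 1 or 2 or siABHD6 1 or 3, and it shares 1056 bases with Nopchap1 on the other strand.

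Of the enzymes of asparagine, proline, alanine and cysteine, 3 of 6 fell and 1 rose, with a class median of -0.40. Asns (ENSMUSG00000029752; mm39 chromosome 6, 7675169 to 7693254, minus strand) was at 44.0, 45.3 and 44.3 CPM with siScramble and at 33.0, 32.6 and 30.6 CPM with siABHD6. Within each group the cultures lay within a few CPM, and the groups were well apart. The log2 fold change was -0.49 (SE 0.06, adjusted p = 3.64e-06), so that it fell by 28.8%. Both enzymes of transsulfuration, which turns homocysteine into cysteine, fell. Cth (ENSMUSG00000028179; mm39 chromosome 3, 157599885 to 157630714, minus strand), for cystathionine gamma-lyase, was at 30.9, 33.2 and 32.1 CPM and at 25.2, 22.0 and 20.7 CPM, with a log2 fold change of -0.52 (SE 0.07, adjusted p = 4.26e-05). Cbs, for cystathionine beta-synthase, went from 116 ± 2.23 CPM to 95.1 ± 2.67 CPM (SD, n = 3), with a log2 fold change of -0.30 (SE 0.04, adjusted p = 3.15e-05).

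Gpt2 (ENSMUSG00000031700; mm39 chromosome 8, 86219205 to 86254189, plus strand), the gene of the mitochondrial alanine aminotransferase, moved the other way. It was at 403, 388 and 380.2 CPM with siScramble and at 439, 443 and 466 CPM with siABHD6. All siABHD6 cultures lay above all siScramble cultures, with a log2 fold change of 0.19 (SE 0.04, adjusted p = 0.00122). The genes of proline synthesis did not pass the test. Aldh18a1, for its first enzyme, was at 38.5 ± 2.26 CPM with siScramble and 34.6 ± 0.463 CPM with siABHD6 (SD, n = 3), with a log2 fold change of -0.17 (SE 0.06, adjusted p = 0.0587), and a processed pseudogene, Gm15801, overlaps it. Pycr1, for the last enzyme, was at 2.48 ± 0.350 CPM with siScramble and 1.52 ± 0.511 CPM with siABHD6 (SD, n = 3), with a log2 fold change of -0.71 (SE 0.27, adjusted p = 0.0863). The groups of both genes did not overlap, as was also so, with siABHD6 lower, for 1816 of all 13449 genes tested. Aldh18a1 passed without siScramble 3 (edgeR adjusted p = 0.0282) and Pycr1 without siABHD6 2 (edgeR adjusted p = 0.0432).

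Of the transporters, 4 of 6 tested fell and none rose, with a class median of -0.27. Slc3a2 (ENSMUSG00000010095; mm39 chromosome 19, 8684246 to 8700733, minus strand), for the heavy chain shared by several amino acid exchangers, was at 234, 246 and 244 CPM with siScramble and at 189, 188 and 180.2 CPM with siABHD6. The groups were clearly separate, with a log2 fold change of -0.39 (SE 0.04, adjusted p = 3.38e-07). Slc7a11 (ENSMUSG00000027737; mm39 chromosome 3, 49846975 to 50398063, minus strand), whose light chain pairs with that heavy chain to import cystine, was at 174, 181 and 193 CPM and at 154, 136 and 128 CPM. Every siABHD6 culture was lower, with a log2 fold change of -0.41 (SE 0.05, adjusted p = 2.69e-05). Slc7a1, for the cationic amino acid carrier, was at 17.5 ± 1.08 CPM with siScramble and 13.4 ± 1.33 CPM with siABHD6 (SD, n = 3) and its log2 fold change was -0.40 (SE 0.10, adjusted p = 0.00680).

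Slc38a2 (ENSMUSG00000022462; mm39 chromosome 15, 96585273 to 96597611, minus strand), for the neutral amino acid carrier SNAT2, was at 172, 171 and 175 CPM with siScramble and at 161, 155 and 162 CPM with siABHD6. The groups did not overlap, but the change was small, with a log2 fold change of -0.13 (SE 0.04, adjusted p = 0.0247). That call was lost without siScramble 1, siScramble 3 or siABHD6 2. Slc1a4 (ENSMUSG00000020142; mm39 chromosome 11, 20252180 to 20282713, minus strand), for a carrier of alanine, serine and cysteine, was at 67.2, 67.4 and 71.0 CPM and at 71.4, 61.0 and 59.4 CPM, where siABHD6 1 was the highest of all 6 cultures and the log2 fold change was -0.12 (SE 0.06, adjusted p = 0.204). Without siABHD6 1 it was -0.20 and passed (edgeR adjusted p = 0.00984). Slc7a5, for the large neutral amino acid carrier LAT1, was at 12.8 ± 1.58 CPM with siScramble and 11.7 ± 1.35 CPM with siABHD6 (SD, n = 3), with a log2 fold change of -0.14 (SE 0.11, adjusted p = 0.472). Slc7a3, another cationic carrier gene, was at 0.547 ± 0.291 CPM with siScramble (SD, n = 3) and was not tested.

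The stress effectors were the most divided class, with 2 lower, 1 higher and 3 not past the threshold of 6 tested, and a median of -0.21. Ppp1r15a (ENSMUSG00000040435; mm39 chromosome 7, 45172340 to 45175692, minus strand), for the subunit GADD34 that directs dephosphorylation of eIF2, was at 30.4, 32.1 and 33.4 CPM with siScramble and at 25.4, 27.5 and 22.6 CPM with siABHD6. The groups did not overlap, with a log2 fold change of -0.36 (SE 0.07, adjusted p = 0.00155). Chac1, for an enzyme that degrades glutathione, was at 10.4 ± 1.02 CPM with siScramble and 7.50 ± 0.708 CPM with siABHD6 (SD, n = 3) and its log2 fold change was -0.48 (SE 0.12, adjusted p = 0.00969). Ddit4 (ENSMUSG00000020108; mm39 chromosome 10, 59785491 to 59787656, minus strand), for the mTORC1 inhibitor REDD1, was at 47.3, 48.9 and 50.5 CPM and at 58.6, 60.0 and 61.5 CPM. Every siABHD6 culture lay above every siScramble culture, with a log2 fold change of 0.28 (SE 0.05, adjusted p = 0.000306).

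The other effectors did not pass in hepatocytes. Sesn2, for a leucine sensor that restrains mTORC1, was at 51.3 ± 2.23 CPM with siScramble and 56.1 ± 3.92 CPM with siABHD6 (SD, n = 3), with a log2 fold change of 0.11 (SE 0.05, adjusted p = 0.182). Eif4ebp1, for an inhibitor of cap-dependent translation, was at 144 ± 9.25 CPM with siScramble and 134 ± 3.82 CPM with siABHD6 (SD, n = 3), with a log2 fold change of -0.12 (SE 0.05, adjusted p = 0.0719). It passed with no filter (edgeR adjusted p = 0.0427) and without siScramble 1 (edgeR adjusted p = 0.0172). Vldlr, a lipoprotein receptor gene, was at 7.97 ± 1.19 CPM with siScramble and 6.61 ± 1.06 CPM with siABHD6 (SD, n = 3), with a log2 fold change of -0.29 (SE 0.15, adjusted p = 0.211). Stc2, for a secreted glycoprotein, was at 0.0562 ± 0.0564 CPM with siScramble (SD, n = 3) and was not tested.

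Library by library, the median over the tested genes of their deviation from the mean of the 6 cultures, on the log2(CPM + 1) scale, was 0.10, 0.15 and 0.14 in siScramble 1 to 3 and -0.09, -0.12 and -0.20 in siABHD6 1 to 3. All 3 siScramble cultures lay above all 3 siABHD6 cultures, and siABHD6 3 was the lowest. Among regulators the siABHD6 values were -0.12, -0.12 and -0.30. Stress effectors gave -0.02, 0.14 and 0.03 in siScramble and 0.03, -0.05 and -0.10 in siABHD6, and here the groups overlapped. Leaving out siABHD6 3 moved the median fold change to -0.29, and leaving out siABHD6 1 moved it to -0.39. The number of genes lower stayed between 17 and 21 over the 6 cultures left out. The biological coefficient of variation was 4.93% between cultures and 28.1% between livers. In a single fit over all 12 libraries, which shares 1 estimate of the spread per gene between cultures and livers, Slc3a2 was the gene still lower, and none was higher.

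**Figure D4:**
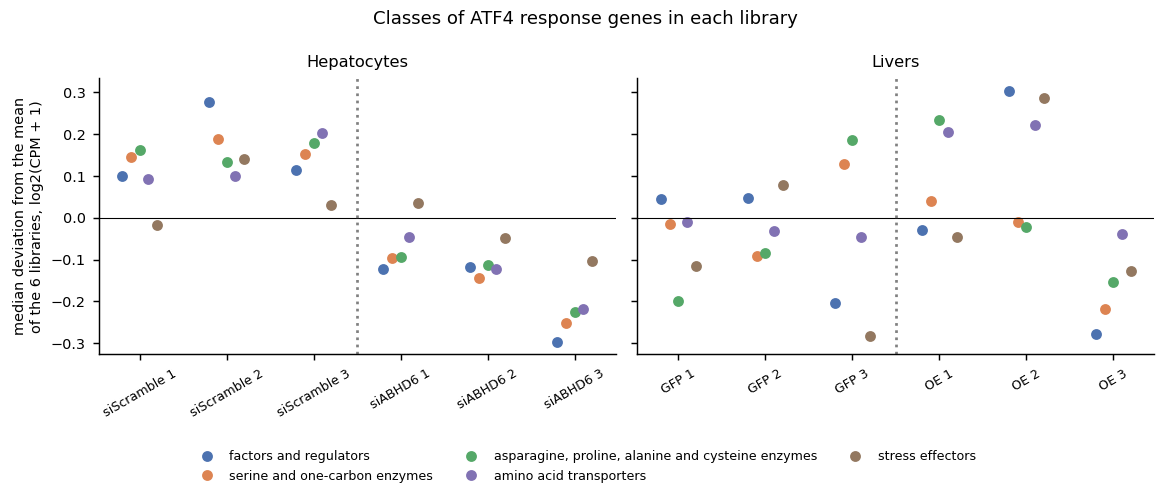
Median deviation of each class from the mean of the 6 hepatocyte (left) or 6 liver (right) libraries, in log2(CPM + 1), with one point per class and library. In hepatocytes 4 of 5 classes lie above 0 in every siScramble culture and below 0 in every siABHD6 culture, while in livers the classes scatter around 0 in both groups.

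Further genes of the pathway, on 6 lists of 73 genes of which 72 were tested, moved less uniformly, with 18 lower, 6 higher and a median of -0.04. Of all genes tested, 7.61% were lower and 7.81% higher, so the count of higher genes is near that of all genes. The same holds for each count of 1 gene lower or higher on these lists. Of 14 genes, 13 for cytosolic tRNA synthetases under ATF4 and Xpot for the export receptor of tRNA, 6 fell and none rose (median -0.10), among them Sars, for the seryl enzyme, at 192 ± 6.43 CPM with siScramble and 161 ± 5.48 CPM with siABHD6 (SD, n = 3), with a log2 fold change of -0.26 (SE 0.04, adjusted p = 7.53e-05). Lars, for the leucyl enzyme, gave -0.25 (SE 0.04, adjusted p = 0.000396). Of 7 other cytosolic synthetase genes 2 fell and none rose (median -0.06), Dars at -0.15 (SE 0.04, adjusted p = 0.0201) and Rars at -0.13 (SE 0.04, adjusted p = 0.0447). Of 12 genes around eIF2, 1 fell and none rose (median -0.02). These 12 encode its other kinases, the GCN2 regulators Gcn1 and Impact, its alpha subunit, a phosphatase subunit and its exchange factor. The gene that fell was Eif2ak3, for the kinase PERK, at 63.3 ± 1.79 CPM with siScramble and 41.2 ± 1.14 CPM with siABHD6 (SD, n = 3). Its log2 fold change of -0.63 (SE 0.05, adjusted p = 2.18e-08) was as large as that of Atf3.

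Of 14 other ATF4 targets 7 fell and 2 rose (median -0.21). Lonp1, for a mitochondrial protease, fell by a log2 fold change of -0.39 (SE 0.04, adjusted p = 1.59e-06), and Herpud1, which acts in disposal of proteins from the endoplasmic reticulum, of -0.40 (SE 0.04, adjusted p = 2.66e-06). Gdf15, for a secreted stress cytokine, was at 43.2 ± 0.974 CPM with siScramble and 53.1 ± 2.21 CPM with siABHD6 (SD, n = 3) and rose by 0.28 (SE 0.05, adjusted p = 0.000586) on the log2 scale, and Map1lc3b, an autophagy gene, rose by 0.12 (SE 0.04, adjusted p = 0.0391). Of 14 other genes of serine, folate and sulfur amino acid metabolism 1 fell and 3 rose (median 0.06). Shmt1, the cytosolic counterpart of Shmt2, fell with a log2 fold change of -0.44 (SE 0.06, adjusted p = 1.53e-05). Gclc, whose product limits glutathione synthesis, was at 1006 ± 12.7 CPM with siScramble and 1586 ± 149 CPM with siABHD6 (SD, n = 3) and rose by 0.64 (SE 0.04, adjusted p = 5.43e-09), and Aldh1l1, for the cytosolic relative of Aldh1l2, rose by 0.19 (SE 0.05, adjusted p = 0.00688). Of 11 tested other amino acid transporter genes 1 fell, Slc36a1 at -0.24 (SE 0.06, adjusted p = 0.00525), and 1 rose, Slc38a3 at 0.22 (SE 0.04, adjusted p = 0.00144), with a median of 0.05.

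In livers, ABHD6 overexpression moved none of these genes past the threshold. Of the 35 genes 29 were tested, and Phgdh, Aldh1l2, Pycr1, Slc7a11, Slc7a3 and Stc2 were too low. None was called, and 0% of all 13910 genes tested were, the overexpressed Abhd6 included, with 301 at an unadjusted p under 0.05; DESeq2 called 8 genes and none of these. The median log2 fold change was 0.04 against -0.01 over all genes tested, with 16 values positive and 13 negative. The groups did not overlap, with overexpression higher, for Slc38a2, Cebpb and Cth, 3 of 29 genes, where 3.11% of all genes tested did so. None had the overexpressing livers all lower, where 3.63% of all genes tested did. None of the 72 tested genes of the pathway lists was called either.

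Slc38a2 was at 142, 131 and 161 CPM in GFP livers and at 219, 199 and 187 CPM in ABHD6 OE livers. Every overexpressing liver was higher, with a log2 fold change of 0.48 (SE 0.13; edgeR unadjusted p = 0.00723, adjusted p = 1.00). Cebpb was at 83.1, 73.8 and 85.2 CPM and at 112, 95.3 and 136 CPM. It was higher in every overexpressing liver, with a log2 fold change of 0.51 (SE 0.15; edgeR unadjusted p = 0.0122, adjusted p = 1.00). Cth was at 223, 241 and 207 CPM and at 301, 281 and 296 CPM, also without overlap, with a log2 fold change of 0.39 (SE 0.13; edgeR unadjusted p = 0.0165, adjusted p = 1.00). On the lower side the smallest p-values belonged to Slc1a4 and Psph. Slc1a4 was at 14.7, 9.88 and 20.5 CPM and at 14.3, 16.0 and 4.73 CPM (log2 fold change -0.36, SE 0.46; edgeR unadjusted p = 0.455). Psph was at 8.51, 7.03 and 8.63 CPM and at 7.92, 7.34 and 6.58 CPM (log2 fold change -0.14, SE 0.19; edgeR unadjusted p = 0.487). Both overlapped between groups.

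Atf4 itself was at 87.5, 104 and 118 CPM in GFP and at 112, 118 and 72.6 CPM in ABHD6 OE livers, which overlapped (log2 fold change -0.03, SE 0.20). The livers varied far more than the cultures: over 29 genes the median coefficient of variation was 21.3% in GFP and 23.1% in ABHD6 OE livers, against 4.37% in siScramble and 6.98% in siABHD6 cultures. Several genes were extreme in livers GFP 3 or ABHD6 OE 1. Asns was at 1.498, 3.85 and 27.2 CPM and at 13.3, 5.41 and 3.99 CPM, highest in GFP 3 and next in ABHD6 OE 1. Vldlr was at 17.0, 18.9 and 0.989 CPM and at 2.70, 18.1 and 5.66 CPM, lowest in these same livers. Atf3 was at 2.37, 2.85 and 0.629 CPM and at 0.261, 8.99 and 1.85 CPM, again lowest there, but with its highest value in ABHD6 OE 2. Over the 29 genes, the median deviation from the mean of the 6 livers, in log2(CPM + 1), was extreme outside these livers. It was highest in ABHD6 OE 2 (0.14) and lowest in ABHD6 OE 3 (-0.19). The part that the differences in acute phase genes, Scd1 and Alb had in these values was not tested. With both livers left out, none of the 29 genes was called.

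The knockdown and overexpression responses were compared directly as a difference of differences over all 12 libraries. This fit shares 1 estimate of the spread per gene between cultures and livers, although their biological coefficients of variation were 4.93% and 28.1%. The manipulations move Abhd6 in opposite directions, so a gene that follows Abhd6 in both systems gives a large negative value. Of 33 genes tested 1 was called, Cth, and 0.125% of all 15244 genes tested were. Its response to knockdown minus its response to overexpression was -0.89 (SE 0.13, edgeR adjusted p = 0.0290), since it fell in hepatocytes and lay higher in all 3 overexpressing livers. The adjusted p ran from 0.0137 to 0.139 when single libraries were left out, and the call was lost without siScramble 1, 2 or 3, siABHD6 2 or 3, or ABHD6 OE 3. It was also lost with library totals (adjusted p = 0.0665) and with the replicate block (adjusted p = 0.386). Slc38a2 showed the same directions, with a difference of -0.59 (SE 0.13, edgeR adjusted p = 0.258), and passed in DESeq2 and without liver GFP 3. For Slc3a2, which fell in hepatocytes, the livers were at 38.7, 39.5 and 37.8 CPM with GFP and at 41.0, 39.2 and 37.9 CPM with overexpression. Its difference was -0.40 (SE 0.10, edgeR adjusted p = 0.298), which passed in DESeq2 (adjusted p = 0.00245). The response of Asns to overexpression could not be set precisely, and its difference was 0.02 (SE 1.00). Slc7a11 had the lowest difference of all genes tested, -5.24 (SE 1.39, edgeR adjusted p = 0.412). In livers it rests on 0 counts in every GFP library and on 0, 3 and 5 counts with overexpression. It passed without ABHD6 OE 1, and without GFP 3 and ABHD6 OE 1 together.

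Control cultures and control livers differed widely in these genes. Of 33 tested, 20 were higher in siScramble hepatocytes than in GFP livers, where 33.3% of all 14215 genes tested were, and 7 were lower, where 36.9% of all genes tested were. The median log2 difference was 1.38 against -0.03 over all genes tested. Holding Slc7a11 at its lower bound could not move this median, because the bound also lies above it. These groups differ in culture, siRNA, virus, diet and cell makeup, which cannot be told apart. The scaling matters here: with library totals in place of TMM factors the median of all genes moved to 0.80, 26 of the genes were higher and 3 lower, and of all genes called 74.2% were higher, against 47.4%.

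Slc7a11 and Phgdh had the largest differences toward culture among the 33 tested genes. Slc7a11 had 0 counts in all 3 GFP livers, so its 183 CPM in siScramble cultures was at least 2175-fold higher, taking 3 counts over the 3 livers as the floor. In ABHD6 OE livers it was at 0, 0.275 and 0.464 CPM. Phgdh was at 0, 0.251 and 0.450 CPM in GFP livers, from 0, 3 and 5 counts, against 31.2 ± 2.77 CPM (SD, n = 3) in siScramble cultures, a log2 difference of 7.04 (SE 0.43, adjusted p = 1.20e-05). Atf3 (5.21), Psat1 (4.03), Aldh18a1 (3.77), Mthfd2 (3.41), Slc7a1 (3.39) and Aldh1l2 (3.28) were also higher in culture on the log2 scale. Psph, of the same serine pathway as Phgdh and Psat1, differed by 1.07 (SE 0.17, adjusted p = 0.00110), below the median of the genes. Slc3a2, the partner of Slc7a11, was present in livers and higher in culture by 2.62 (SE 0.08, adjusted p = 9.81e-07).

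Cysteine-forming enzymes and mitochondrial Shmt2 lay on the other side. Cth was at 30.9, 33.2 and 32.1 CPM in siScramble cultures and at 223, 241 and 207 CPM in GFP livers, a log2 difference of -2.83 (SE 0.10, adjusted p = 1.22e-06). Shmt2 was at 55.2, 61.7 and 62.1 CPM and at 324, 291 and 325 CPM, a difference of -2.42 (SE 0.10, adjusted p = 2.39e-06). Cbs followed at -2.38 (SE 0.13, adjusted p = 7.44e-06). Atf5, Cebpb, Gpt2 and Cebpg were lower in culture by smaller amounts with TMM scaling (-0.83, -0.95, -0.98 and -0.45). With library totals the first 3 lost their calls and Cebpg was higher in culture. Atf4 was higher in culture by 0.46 (SE 0.12, adjusted p = 0.0115).

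By class, 5 of 9 regulators were higher in culture and 3 lower, 5 of 6 serine and one-carbon genes higher and 1 lower, 1 of 6 asparagine, proline, alanine and cysteine genes higher and 3 lower, 4 of 6 transporters higher and 5 of 6 stress effectors higher. Of all genes tested 33.3% were higher and 36.9% lower, so the count of lower regulators is near the share of all genes. Eif2ak4, Asns, Pycr1, Slc7a5, Slc38a2 and Vldlr did not pass. All 6 passed without liver GFP 3, and the counts were then 25 higher and 8 lower. Leaving out that liver also raised the number of calls over all genes, from 9991 to 11331. In that liver Asns and Slc7a5 were at 27.2 and 9.62 CPM, the highest of the 6 livers for both.

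**Figure D5:**
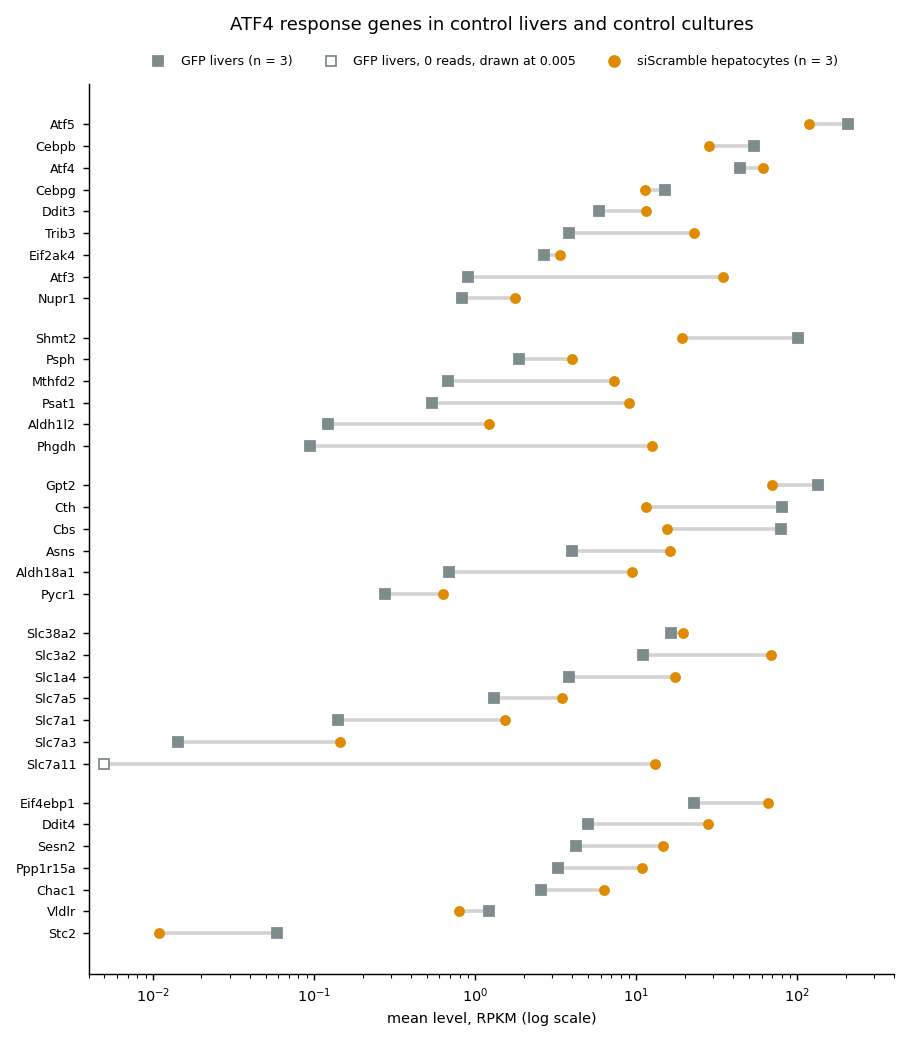
Mean level per length (RPKM, log axis) of the 35 genes in GFP livers (squares) and siScramble hepatocytes (circles), by class, with the gene at 0 counts in livers drawn open at 0.005. Slc7a11 and Phgdh span the widest distances with cultures higher, and Cth, Shmt2 and Cbs the widest with livers higher.

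Per length, the order of levels also differed between the systems. In siScramble cultures Atf5 was highest at 118 ± 4.92 RPKM (SD, n = 3), followed by Gpt2 at 69.2 ± 2.11 RPKM, Slc3a2 at 68.5 ± 1.81 RPKM, Eif4ebp1 at 65.7 ± 4.21 RPKM and Atf4 at 61.4 ± 2.08 RPKM. Gpt2, Slc3a2 and Eif4ebp1 each overlapped the next within the SDs. In GFP livers Atf5 was again first at 206 ± 58.7 RPKM, before Gpt2 at 134 ± 24.2 RPKM, Shmt2 at 101 ± 6.13 RPKM, Cth at 80.2 ± 6.09 RPKM and Cbs at 79.1 ± 11.3 RPKM. Atf5 and Gpt2 overlapped within their SDs there, as did Cth and Cbs. Slc7a11 was at 13.1 ± 0.666 RPKM in siScramble cultures, next to Phgdh at 12.5 ± 1.11 RPKM.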

How the data were processed

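Poly-A RNA-seq libraries (12, in 4 groups of 3) were analysed from the table of raw counts per gene that the authors deposited, with no normalization and with the gene length of each row. HISAT2, DESeq2 and build mm39 appear in the submitters' processing notes; the counter, annotation, strand and versions are not given in the sources used here. All 12 count columns matched a library, with 0 columns left over. The deposited FPKM values were not used.

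For each comparison, edgeR 4.0.16 (R 4.3.3) was run on the 6 libraries concerned, with filterByExpr, TMM factors and the quasi-likelihood F test. Genes were called when the Benjamini-Hochberg p, adjusted over every gene in the test, was under 0.05. The SE is the absolute log2 fold change divided by the root of F. The difference of responses used all 12 libraries. CPM uses TMM library sizes over all 12, which shifts it by 0.02 on the log2 scale from the hepatocyte fit, and RPKM divides it by the gene length. The fits that compare a pair of groups were run on simulated data, but the difference of responses was not. Alternatives were RLE factors, library totals, no filter, DESeq2 1.42.0, limma-voom (limma 3.58.1), a replicate block, 1 fit over all libraries and removal of each library. Leaving out livers GFP 3 and ABHD6 OE 1 together was added after the data were seen. Promoter windows came from RefSeq on GRCm38.p6 and were matched by gene name, and no coordinates were mixed between builds. Python 3.11.15, pandas 2.3.3 and matplotlib 3.10.9 were used for summaries and plots.

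The genes and lists were chosen with earlier results of these data known. Per-library values are given for Atf4, for the gene with the smallest p in each direction of each class in hepatocytes, for the 2 such genes in each direction in livers and for the 2 largest differences in each direction between controls. Up to 2 called genes in each direction are named per pathway list. Values of Atf3 and Vldlr per library were added after they were seen, as were those of Slc3a2 in livers.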

Additional observations from a re-analysis of the deposited data

Results flagged for a closer look

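Cth was singled out because its responses to knockdown and to overexpression differed in a test of the difference itself, with -0.89 on the log2 scale (SE 0.13, edgeR adjusted p = 0.0290), from -0.52 in hepatocytes and 0.39 in livers. That test shares an estimate of the spread per gene between cultures and livers. All 3 siABHD6 cultures were lower than all siScramble cultures, and all 3 overexpressing livers were higher than all GFP livers. The call was lost with the replicate block (adjusted p = 0.386), with library totals (adjusted p = 0.0665) and without any of 6 single libraries (adjusted p up to 0.139). System, diet and virus differ between the responses as well as the direction of Abhd6, and these cannot be told apart.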

How the results depend on the processing

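In hepatocytes the counts of 2075 genes, 21 of the ATF4 response genes lower and 3 higher, stayed within 1.5 times under RLE factors, library totals, no filter, DESeq2, limma-voom, the replicate block (2124, 22 and 3) and each culture left out (1468 to 1873 genes, 17 to 21 lower, 2 to 3 higher). The single fit over all 12 libraries gave 41 genes, 1 lower and 0 higher, with the spread of the livers shared. In livers 0 genes were called, against 2 without the filter, 8 in DESeq2, 4 in the single fit and 1 without livers GFP 3 and ABHD6 OE 1; of the response genes, 0 were called under each of these. Between control groups, library totals gave 3 genes lower in place of 7 and turned Cebpg to 0.37. The difference of responses called 19 genes and 1 response gene. It called 105 and 3 in DESeq2, 2 and 0 with the replicate block, 166 and 3 without livers GFP 3 and ABHD6 OE 1, 4 to 58 and 0 to 2 with single libraries left out, and 0 response genes with library totals; the causes were not tested. Replicate numbers were not treated as pairs: deviations of equal numbers correlated at -0.42, 0.44 and -0.13 in livers and at -0.01, -0.01 and -0.00 in hepatocytes. Depth limits Slc7a3, Stc2, and in livers Phgdh and Slc7a11, which rest on few counts. The floor covers counting error only.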
